A study of Mus musculus with 12 samples.

Results

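Ion channels are the proteins through which charged atoms cross the cell membrane, and 119 genes with channel symbols, of 18193 genes measured, are described here along the posterior neural tube of the mouse embryo. They were chosen by symbol alone. A gene was taken when the platform annotation gave its probe sets exactly 1 gene and that symbol began with Kcn (potassium channels and their partners), Scn followed by a number and a or b (sodium channels) or Cacn (calcium channels). Each gene was represented by 1 probe set, the one with the highest mean signal over all arrays, and 72 of the 119 genes had more than 1 to choose from. The symbols also took in 3 RNAs that are not channel subunits: Kcnq1ot1, a long non-coding RNA from the Kcnq1 locus, and the opposite-strand transcripts Kcnmb4os1 and Kcnmb4os2. The remaining 116 genes comprise, by symbol alone, 81 for potassium, 11 for sodium and 24 for calcium channels, and the roles of single members were not checked.

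The tissue was the posterior neural tube, the forerunner of the spinal cord, from CD1 mice, an outbred stock, at 9.5 days post-coitus. It had been freed from its neighbours after 1 min in pancreatin at 2 mg per ml and cut into 6 pieces, called parts 1 to 6. Nothing in the labels says which number lies at the tail end. The labels name no mutation and no other treatment, and 2 embryos gave 2 arrays per part, 12 in all, with RNA amplified in 2 rounds before labelling.

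Voltage-gated sodium and calcium channels open when the membrane depolarises, and potassium channels mostly bring the membrane back towards rest. Pore-forming alpha subunits set the ion selectivity, while auxiliary subunits alter gating, trafficking or surface level. In the neural tube most cells at this age are dividing progenitors, and fast electrical signalling belongs mainly to neurons, which are only beginning to form. Potassium channels that stay open at rest and calcium channels that open near the resting potential are also found in cells that do not fire.

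The deposited values are linear MAS5 intensities, scaled so that each array had the same trimmed mean. The array medians lay between 16.7 and 19.1 units, and replicate arrays correlated with r from 0.646 to 0.848 over the 49 channel genes tested and from 0.951 to 0.980 over all genes tested (a description, since genes are not replicates). The pieces were checked against marker genes. The summed signal of 8 neural progenitor genes was 4886 to 5043 in part 6 and 1382 to 1793 in part 1, with 5 of 8 rising by slope (for example Sox2, 1426 and 1611 in part 6, against 199 and 286 in part 1). The sum of 8 presomitic mesoderm genes was 212 to 233 in part 6 and 3996 to 5628 in part 1, with 5 falling, and that of 9 surface ectoderm genes was 133 to 154 in part 6 and 449 to 1247 in part 1, with 8 falling. The sum of 16 neuron genes was 429 to 474 in part 6 and 394 to 476 in part 1, and 6 of the 16 exceeded the array median on no array. Of these genes 1 rose (Elavl4, 67.8 and 110.5 units in part 6, against 21.5 and 36.0 in part 1) and 2 fell, Stmn2 (18.5 and 12.8, against 39.6 and 45.1) and Map2 (55.0 and 56.8, against 103 and 132). The sum of 7 neural crest genes was 514 to 615 in part 6 and 145 to 316 in part 1. By slope 3 of them rose, Ednrb, Foxd3 and Tfap2b, in the direction of Kcne1l, Kcng1 and Kcnk6 below. The others were not called, Sox10 and Ets1 with slopes of 0.02 and 0.08, and Tfap2a and Erbb3 with slopes of -0.19 and -0.18. The part of this list in those results was not tested. The sum of 6 blood genes differed widely within parts, 102 and 6215 in part 6 and 61.8 and 9845 in part 1, and none was called. In part 2 the sums of somite (113 and 473), heart and muscle (91.4 and 419) and notochord genes (65.6 and 588) also differed widely. Foxc2, for example, read 185 units in replicate 1 of part 2 and 1.15 in replicate 2. By slope 1 somite gene and 2 heart and muscle genes fell, and 1 gene of the notochord list, Foxa2, rose. T and Noto of that list were not measured. Of 9 endothelium and 5 gut endoderm genes only 2 each were tested, and none was called. The part of these lists in the results below was not tested. In bulk tissue, fewer cells of a type and less RNA per cell cannot be told apart.

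**Figure D1:**
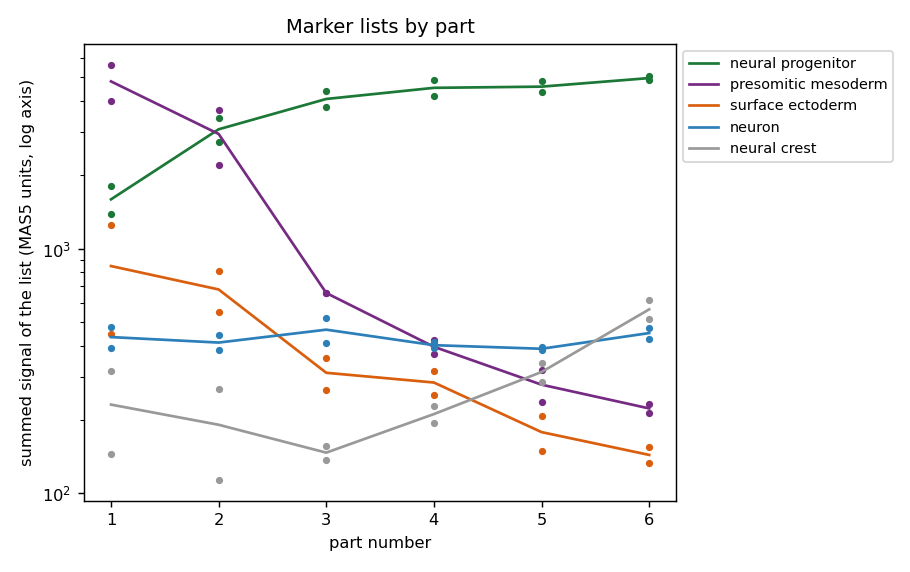
Summed signal of 5 marker lists (MAS5 intensity units, log axis) against part number; points are single arrays and lines join the means of 2. Presomitic mesoderm markers had 212 to 233 units in part 6 and 3996 to 5628 in part 1, while neuron markers stayed between 384 and 520 on all arrays.

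RefSeq gave promoter windows for 4 of the 8 genes whose signal followed the part number, and 3 are shown: Kcne1l, which rose most by slope, and Kcnma1 and Kcnmb4, the pore and a partner of the same potassium channel, which both fell. Each is 300 bases, from 250 before to 50 after the annotated start, in build GRCm38.p6, written 5′ to 3′ along the gene's own strand. Capitals mark GGGCGG on either strand, the letters that Sp-family factors are known to bind.
Kcne1l (chrX:142306149-142306448, minus strand): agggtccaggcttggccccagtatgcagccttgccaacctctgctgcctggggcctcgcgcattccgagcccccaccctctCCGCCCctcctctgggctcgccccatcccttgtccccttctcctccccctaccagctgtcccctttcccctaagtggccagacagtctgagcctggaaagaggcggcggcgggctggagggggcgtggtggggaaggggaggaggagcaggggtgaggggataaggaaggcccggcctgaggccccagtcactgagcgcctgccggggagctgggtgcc
Kcnma1 (chr14:24004156-24004455, minus strand): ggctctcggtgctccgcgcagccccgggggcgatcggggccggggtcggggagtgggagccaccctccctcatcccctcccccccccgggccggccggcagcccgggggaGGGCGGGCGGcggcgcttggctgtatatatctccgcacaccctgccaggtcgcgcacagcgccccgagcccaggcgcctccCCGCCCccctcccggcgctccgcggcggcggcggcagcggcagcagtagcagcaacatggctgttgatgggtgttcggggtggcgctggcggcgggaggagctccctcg
Kcnmb4 (chr10:116473474-116473773, minus strand): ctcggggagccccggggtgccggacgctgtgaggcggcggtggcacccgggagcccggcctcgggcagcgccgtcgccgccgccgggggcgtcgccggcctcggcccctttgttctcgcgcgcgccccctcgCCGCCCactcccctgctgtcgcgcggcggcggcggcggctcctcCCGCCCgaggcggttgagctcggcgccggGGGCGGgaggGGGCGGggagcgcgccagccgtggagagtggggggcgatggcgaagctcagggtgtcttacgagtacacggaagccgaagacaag
There was 1 match in Kcne1l, 3 in Kcnma1, of which 1 overlapped another, and 4 in Kcnmb4. GGGCGG occurs in 45.2% of 126 windows of 91 channel genes and in 35.7% of 32851 windows of all genes. The window of Kcnk1, the other called gene with one, holds no GGGCGG. The letters CCAAT were in 29.4% of channel windows and 37.4% of all, TATAAA in 5.6% and 13.6%, and AGGTCA in 7.1% and 16.3%. None of these last 3 motifs was in the windows printed or in that of Kcnk1, which says only that those letters are not there.

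Fewer channel genes than genes in general exceeded the median of their arrays. Of the 119 channel genes, 49 (41.2%) did so on at least 2 of 12 arrays, against 66.4% of all genes. On all 12 arrays it was 14 (11.8%), against 50.5% of all genes, and on no array 60 (50.4%), against 29.6%. Single arrays had 28 to 36 channel genes above their median. In parts 1 to 6 the genes above it on both arrays numbered 27, 22, 25, 26, 23 and 27, so the count did not follow the part number. A probe set's brightness depends on its sequence as well as on the RNA, and with no detection calls at hand background and low expression look alike. These are therefore counts against a fixed line, and no gene's level is set against another's.

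By subunit class, with no test between classes, the counts were as follows. Of 31 voltage-gated potassium alpha subunits (Kv), 12 exceeded the median on at least 2 arrays and 17 on none. Among the 12 two-pore potassium leak channels (K2P) it was 4 and 8, among the 15 inward rectifiers (Kir) 4 and 8, and among the 8 calcium- or sodium-activated potassium channels 3 and 5. The 15 potassium auxiliary genes had 7 and 5. Of 8 sodium alpha subunits 1 passed and 7 never did. Of 9 calcium alpha1 subunits 6 passed and 3 never did, near the shares of all genes (66.4% and 29.6%). Only 1 of these 9 exceeded the median on all 12 arrays (11.1%), against 50.5% of all genes. Among the calcium auxiliary genes 2 of 4 alpha2delta, 2 of 3 beta and 5 of 8 gamma genes passed.

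**Figure D2:**
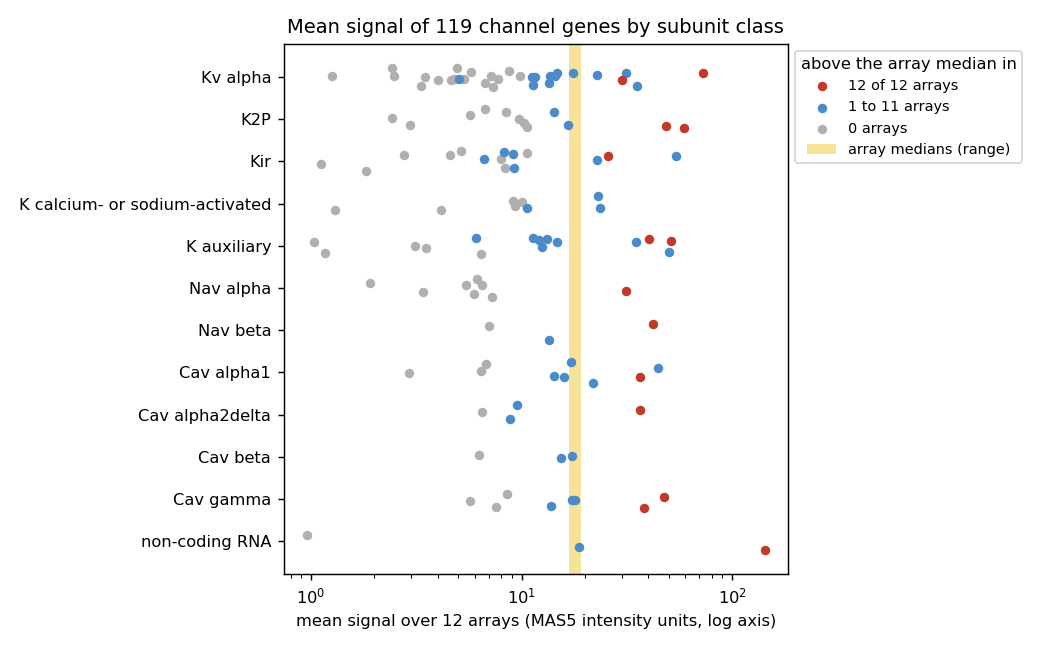
Mean signal over 12 arrays of each of the 119 channel genes (MAS5 intensity units, log axis), by subunit class; colour gives the number of arrays on which the gene exceeded the median, and the band spans the array medians of 16.7 to 19.1. Grey points, the 60 genes never above the median, have means of 0.955 to 10.6.

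Whether signal followed the part number was tested with limma as the slope of log2(signal + 4.43) per part over 12 arrays, adjusted by Benjamini-Hochberg over all 12077 genes above the median on at least 2 arrays. Of the 49 channel genes tested, 8 (16.3%) were called at 0.05, against 12.7% of all genes. Higher towards part 6 were 3, Kcne1l, Kcng1 and Kcnk6 (5.66% of all genes), and lower were 5, Cacna1h, Kcnma1, Kcnk1, Kcnmb4 and Cacna1a (7.09%). Without the filter, 8 of 119 were called (6.72%, against 6.84% of all genes), with Scn4b in and Kcnk6 out. With the embryo as a block it was 9 of 49, against 15% of all genes. These shares are near the background, and a gene may pass the filter only through the parts where it is high. The residual SD was 0.41 (median, log2) for channel genes and 0.25 for all genes tested. All adjusted p-values below come from these limma fits.

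**Figure D3:**
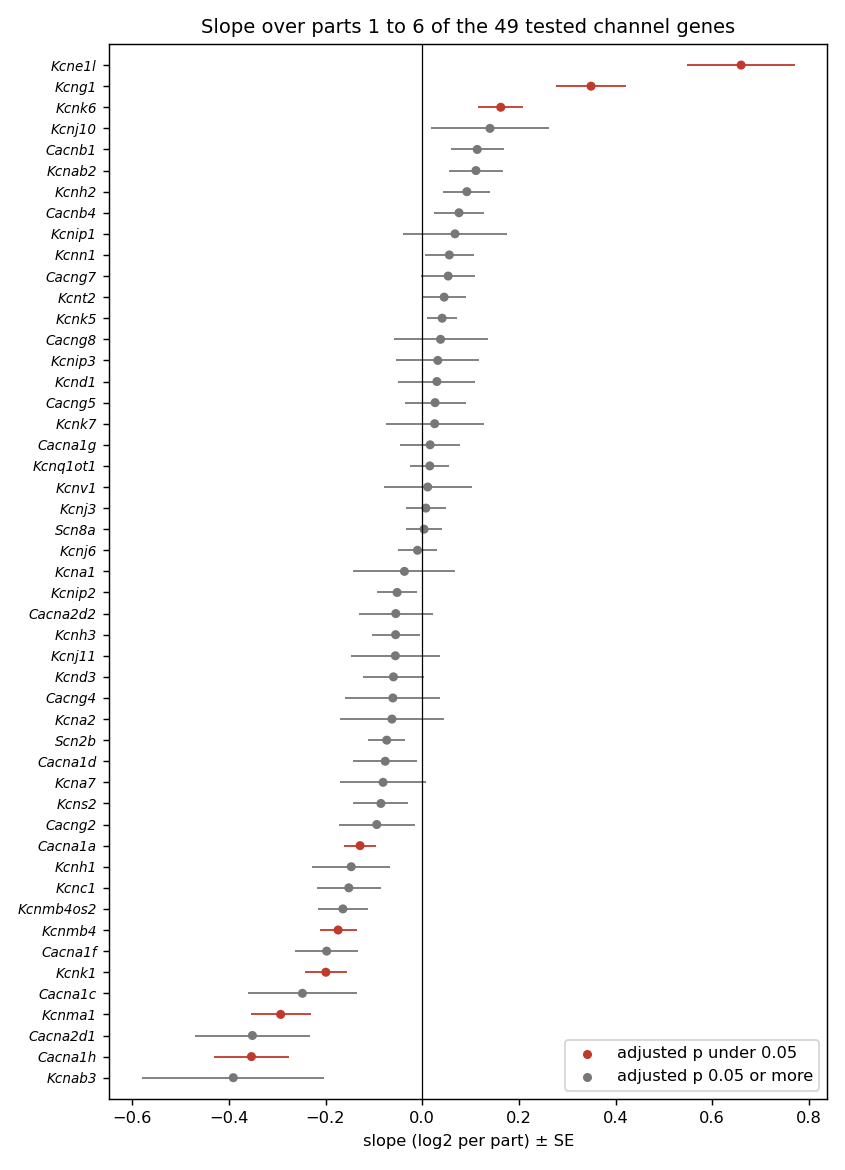
Slope of log2(signal + 4.43) per part for the 49 channel genes tested, with bars of 1 SE; a positive slope means higher towards part 6. The 8 genes called run from 0.66 (Kcne1l) to -0.35 (Cacna1h), and among the 41 others some, such as Kcnab3 at -0.39 and Cacna1c at -0.25, are steeper than some called genes and have wide bars.

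Potassium auxiliary subunits held the gene with the steepest slope. Kcne1l (also called Kcne5, chromosome X) encodes a small single-pass protein of the family that modulates voltage-gated potassium channels. Its signal in the 2 arrays of each part was 2.52 and 2.51 in part 1, 21.3 and 15.7 in part 2, 66.2 and 53.0 in part 3, 86.6 and 57.8 in part 4, 80.0 and 73.6 in part 5, and 77.2 and 67.9 in part 6. Every array of parts 3 to 6 was above every array of parts 1 and 2, and the arrays of part 4 spanned those of parts 5 and 6. The slope was 0.66 ± 0.11 log2 per part (SE, adjusted p = 0.00148), and part 6 exceeded part 1 by 3.47 ± 0.22 (adjusted p = 1.89e-05). Most of the change lay at the start: the steps of part 2 over part 1 (1.71 ± 0.22, adjusted p = 0.0210) and of part 3 over part 2 (1.49 ± 0.22, adjusted p = 0.0447) were the only ones called for a channel gene in this fit, against 0.24% and 0.19% of all genes. Its known partner Kcnq1 averaged 4.78 units and never exceeded the median. Presomitic mesoderm markers fell over the same parts, and their part in the result was not tested.

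Kcnmb4, on chromosome 10, encodes the beta4 subunit of the large-conductance calcium-activated (BK) channel. Its signal was 66.2 and 68.2 in part 1, 63.9 and 61.8 in part 2, 57.0 and 47.2 in part 3, 44.6 and 45.1 in part 4, 54.8 and 36.3 in part 5, and 45.0 and 25.1 in part 6. Both arrays of part 6 were below both of part 1, by 0.91 ± 0.26 log2 (adjusted p = 0.0619, and 0.0305 with the embryo as a block), and the slope was -0.17 ± 0.038 (adjusted p = 0.00835). Without both arrays of part 1 the slope was not called (adjusted p = 0.0653). The opposite-strand Kcnmb4os2 read 14.1 and 11.2 units in part 6, against 24.0 and 23.9 in part 1, with a slope of -0.16 ± 0.052 (adjusted p = 0.0575, and 0.04996 with the embryo as a block, which is a call). The probe sets' strand was not checked here, so signals of the overlapping pair are uncertain.

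Kcnab3, encoding a cytoplasmic beta subunit of Kv channels, was high in the middle. Its signal was 43.9 and 4.53 in part 1, 69.9 and 54.6 in part 2, 56.2 and 47.0 in part 3, 68.0 and 33.7 in part 4, 29.9 and 4.41 in part 5, and 4.79 and 0.95 in part 6. Both arrays of parts 2 and 3 were above both of parts 1 and 6, and replicate 1 was the higher in every part. Its F test among the 6 parts gave adjusted p = 0.166, and 0.0235 with the embryo as a block. Its second probe set had part means of 1.43, 16.9, 29.0, 13.3, 4.95 and 1.42 units. Kcnab2, another beta subunit, had its highest mean in part 5 (22.1 units, against 7.64 in part 1 and 9.77 in part 6). Its F test gave adjusted p = 0.0604, and 0.0187 with the block, and it was called under 2 of 21 alternatives. Kcnab2 exceeded the median on 2 arrays, and only its part 5 mean lay above the array medians. It therefore passed the filter only through the part where it is high, and with no filter the F test gave adjusted p = 0.126. Its other, dimmer probe set had no peak there, with means of 1.75 units in part 5 and 4.36 in part 1. Kcnip2, a calcium-binding partner of Kv4 channels, ranged from 27.9 to 54.1 units with a median of 40.5 and was not called (slope -0.05 ± 0.041).

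Kv alpha subunits gave 1 call. Kcng1 (chromosome 2) encodes a Kv6 subunit that forms no channel alone and modifies Kv2 channels. Its signal was 17.0 and 5.00 in part 1, 19.1 and 29.2 in part 2, 33.0 and 31.9 in part 3, 51.6 and 49.6 in part 4, 47.2 and 48.5 in part 5, and 52.1 and 38.5 in part 6. Both arrays of each of parts 4 to 6 were above all arrays of parts 1 to 3. The slope was 0.35 ± 0.072 (adjusted p = 0.00580) and part 6 exceeded part 1 by 1.79 ± 0.34 (adjusted p = 0.0109). Without both arrays of part 1 the slope missed the threshold (adjusted p = 0.0557), and the second, dimmer probe set, with a mean of 4.99 units, had a slope of the opposite sign (-0.04).

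Kcnh2, the hERG-type channel known for repolarising heart muscle, exceeded the median on all arrays. It ranged from 42.2 to 103 units with a median of 72.8, and its slope was 0.09 ± 0.049 (adjusted p = 0.254). Kcna7 (Kv1.7) had a lowest signal of 6.35, a median of 33.6 and a highest of 44.0, with no called slope. Kcnc1, a Kv3 channel of fast-firing neurons, read 4.91 and 6.55 units in part 6, against 17.6 and 14.8 in part 1. That difference was called only with the embryo as a block (adjusted p = 0.0443, against 0.0656 without it). The Kcnc1 probe set used exceeded the median on 2 arrays. Its dimmer probe sets had part 6 minus part 1 differences of 0.79, 0.30 and -0.04 log2.

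K2P leak channels gave a call in each direction. Kcnk1 (TWIK-1, chromosome 8) had a signal of 105 and 70.5 in part 1, 64.1 and 91.2 in part 2, 52.0 and 50.3 in part 3, 38.7 and 64.2 in part 4, 40.7 and 46.9 in part 5, and 39.4 and 46.6 in part 6. Both arrays of parts 5 and 6 were below those of parts 1 and 2. The slope was -0.20 ± 0.044 (adjusted p = 0.00854), and it was lost without both arrays of part 1 (adjusted p = 0.0867). Kcnk6 (TWIK-2, chromosome 7) had 13.3 and 9.55 in part 1, 15.2 and 11.96 in part 2, 21.9 and 11.2 in part 3, 16.1 and 10.6 in part 4, 16.3 and 18.7 in part 5, and 30.0 and 24.6 in part 6. Part 6 alone stood above the rest. Its slope of 0.16 ± 0.047 (adjusted p = 0.0378) gave adjusted p = 0.0649 with all genes tested and 0.412 without part 6. Kcnk5 (TASK-2), a pH-sensitive leak channel, ranged from 37.2 to 63.1 units with a median of 49.03, and its slope was 0.04 ± 0.031 (adjusted p = 0.445).

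Of the 15 inward rectifiers 4 were tested and none was called, against 12.7% of all genes by slope. Kcnj11, the pore of the ATP-sensitive potassium channel, ranged from 15.6 to 80.1 units with a median of 58.5 and a slope of -0.06 ± 0.091 (adjusted p = 0.762). Its regulatory partner Abcc8 fell, with 3.64 and 2.00 units in part 6, against 21.5 and 15.4 in part 1 (slope -0.28 ± 0.081, adjusted p = 0.0359). Kcnj3 and Kcnj6, subunits of G-protein-gated channels, had medians of 24.99 and 22.99 units and slopes of 0.01 and -0.01.

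The BK pore gene Kcnma1 (chromosome 14) fell with its partner Kcnmb4, by the probe set used. Its signal was 16 and 20.1 in part 1, 20.8 and 15.5 in part 2, 9.47 and 7.17 in part 3, 10.3 and 6.29 in part 4, 6.27 and 3.77 in part 5, and 1.21 and 10.4 in part 6. All arrays of parts 3 to 6 were below all arrays of parts 1 and 2, and only 2 arrays in all exceeded their median. The slope was -0.29 ± 0.062 (adjusted p = 0.00686). It was lost when the probe sets of a gene were averaged (adjusted p = 0.227). The 4 others were dimmer, and 1 of them had a positive slope (0.11). Their part 6 minus part 1 differences were 0.96, -0.06, -0.72 and -0.02 log2, against -1.29 for the one used. The slope of the one used was also lost without both arrays of part 1 (adjusted p = 0.0686). Kcnt2, a sodium-activated potassium channel, and Kcnn1, a small-conductance calcium-activated one, had medians of 23.0 and 21.9 units, and neither was called.

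Of the 11 sodium channel genes only 2, Scn8a and Scn2b, were in the filtered fit. Neither was called, against 12.7% of all genes by slope, and so few genes say little about the family. Scn8a (Nav1.6), a main channel of the axon initial segment in mature neurons, ranged from 23.3 to 40.6 units with a median of 31.4, above the median on all 12 arrays. Its slope was 0.00 ± 0.037 (adjusted p = 0.965). Its further probe sets, not tested singly, averaged 3.22 to 12.1 units with slopes of 0.03 to 0.17. The steepest of these averaged 12.8 units in part 6 and 4.47 in part 1. The 7 other alpha subunits, Scn1a, Scn2a, Scn3a, Scn7a, Scn9a, Scn10a and Scn11a, averaged 1.90 to 7.23 units, and their highest single signal was 16. Among beta subunits, which tune gating and cell adhesion, Scn2b ranged from 28.8 to 53.2 units with a median of 41.3 (slope -0.07 ± 0.038, adjusted p = 0.247). Scn3b, above the median on 1 array, had 8.54 to 23.8 units with a median of 12.7 and was not tested. Scn4b, never above the median, was called only without the filter (slope -0.20, adjusted p = 0.0426).

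Of 15 genes tested with calcium channel symbols, 2 were called, a share near the 12.7% of all genes. Both were pore-forming alpha1 subunits with lower signal towards part 6. Cacna1h (Cav3.2, chromosome 17) encodes a T-type channel, which opens near the resting potential. Its signal was 63.4 and 41.0 in part 1, 62.4 and 60.1 in part 2, 59.4 and 63.4 in part 3, 60.9 and 44.9 in part 4, 32.6 and 19.5 in part 5, and 13.6 and 10.8 in part 6. Parts 1 to 4 overlapped, both arrays of part 5 were below all of them, and both of part 6 were lower still. Part 6 was below part 1 by 1.74 log2 (difference -1.74 ± 0.27, adjusted p = 0.00342), and the slope was -0.35 ± 0.077 (adjusted p = 0.00796). Neither step was called (5 minus 4, -0.93 ± 0.27; 6 minus 5, -0.85 ± 0.27), and without both arrays of part 6 the slope was lost (adjusted p = 0.199). Its second probe set had the same sign (slope -0.22).

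Cacna1a (Cav2.1, chromosome 8), the pore of P/Q-type channels of nerve terminals, had 46.7 and 36.3 in part 1, 47.9 and 49.4 in part 2, 33.2 and 40.0 in part 3, 35.2 and 35.2 in part 4, 27.4 and 34.9 in part 5, and 23.5 and 30.8 in part 6. Both arrays of part 6 were below both of part 1. The slope of -0.13 ± 0.032 (adjusted p = 0.0186) was lost without replicate 1 of part 6 (adjusted p = 0.0752), with the probe sets averaged (0.125) and without both arrays of part 6 (0.149). Its 3 further probe sets had slopes of the same sign.

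The other alpha1 subunits were not called. Cacna1g (Cav3.1), also T-type, had a median of 22.7 units and a slope of 0.02 ± 0.062. The L-type genes Cacna1c, Cacna1f and Cacna1d had medians of 18.8, 14.0 and 12.6 units, Cacna1f with a slope of -0.20 (adjusted p = 0.0632). Cacna1e, Cacna1b and Cacna1s never exceeded the median. Of the auxiliary genes, Cacna2d1 encodes an alpha2delta subunit, which promotes surface delivery of the pore. It had 29.4 and 21.6 in part 1, 29.2 and 7.38 in part 2, 0.74 and 4.20 in part 3, 1.78 and 2.56 in part 4, 4.15 and 0.44 in part 5, and 6.03 and 6.42 in part 6. All arrays of parts 3 to 6 were below all of parts 1 and 2. Cacna2d1 exceeded the median on 3 arrays, all in parts 1 and 2, so it passed the filter only through the parts where it is high. The slope was -0.35 ± 0.12 (adjusted p = 0.0723, and 0.112 with no filter). It was called under 4 of 21 alternatives, among them the mean of its probe sets (adjusted p = 0.0427). Cacna2d2, Cacng4 and Cacng7 exceeded the median on all arrays and were not called, nor were Cacng2 and the beta subunits Cacnb1 and Cacnb4. Cacnb2 and Cacna2d4, above the median on 0 and 1 arrays, were not tested. Cacng4 read 138 units in replicate 1 of part 1, against 18.4 to 56.1 elsewhere.

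**Figure D4:**
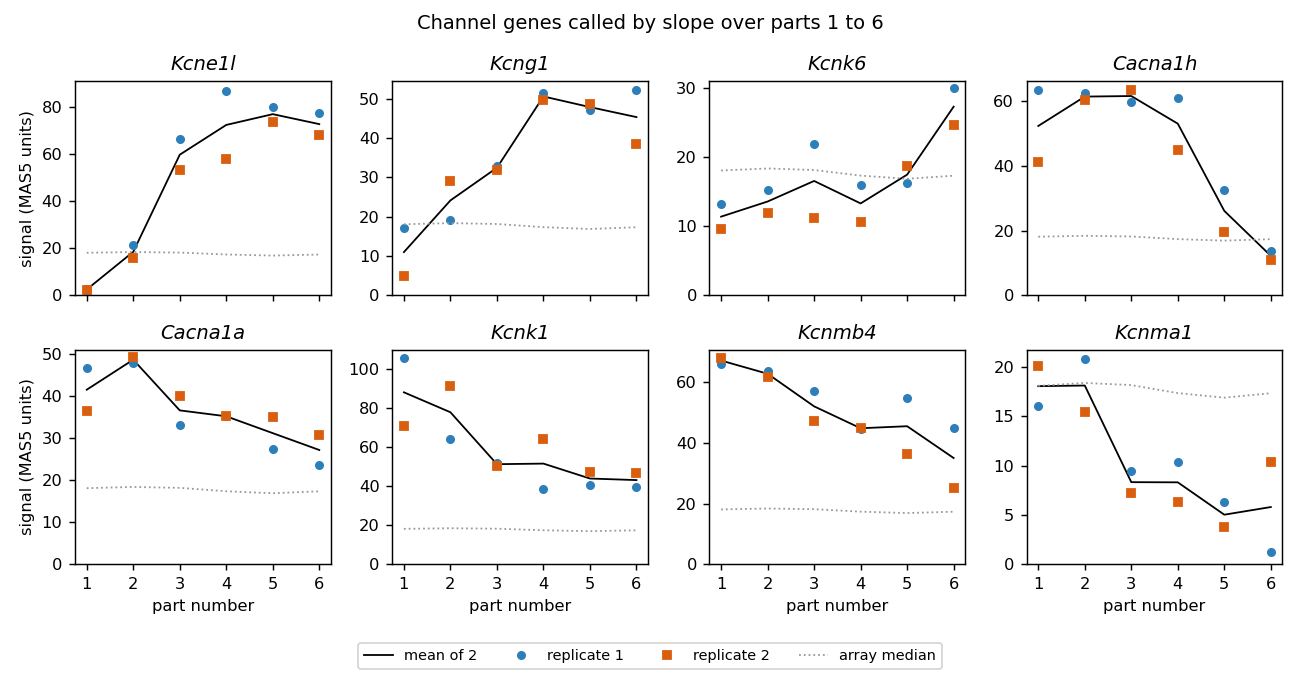
Signal of the 8 channel genes called by slope (MAS5 intensity units) against part number; circles are replicate 1, squares replicate 2, lines the mean of 2 and dotted lines the mean array median. Kcne1l had 77.2 and 67.9 units in part 6 and 2.52 and 2.51 in part 1, and Cacna1h had 13.6 and 10.8 in part 6 and 63.4 and 41.0 in part 1.

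Kcnq1ot1, known for silencing neighbouring genes on the paternal chromosome, was not called, with 99.2 to 180.5 units, a median of 148 and a slope of 0.02 ± 0.040 (adjusted p = 0.848). Its 5 further probe sets, not tested singly, had slopes of 0.01 to 0.14, and their part 6 minus part 1 differences were 0.27 to 1.27 log2, against 0.07 for the one tested. Among those above the median on all arrays, a probe set averaged 128 units in part 6 and 73.3 in part 1 (slope 0.14). A brighter probe set averaged 134 and 99.7 (slope 0.01).

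**Figure D5:**
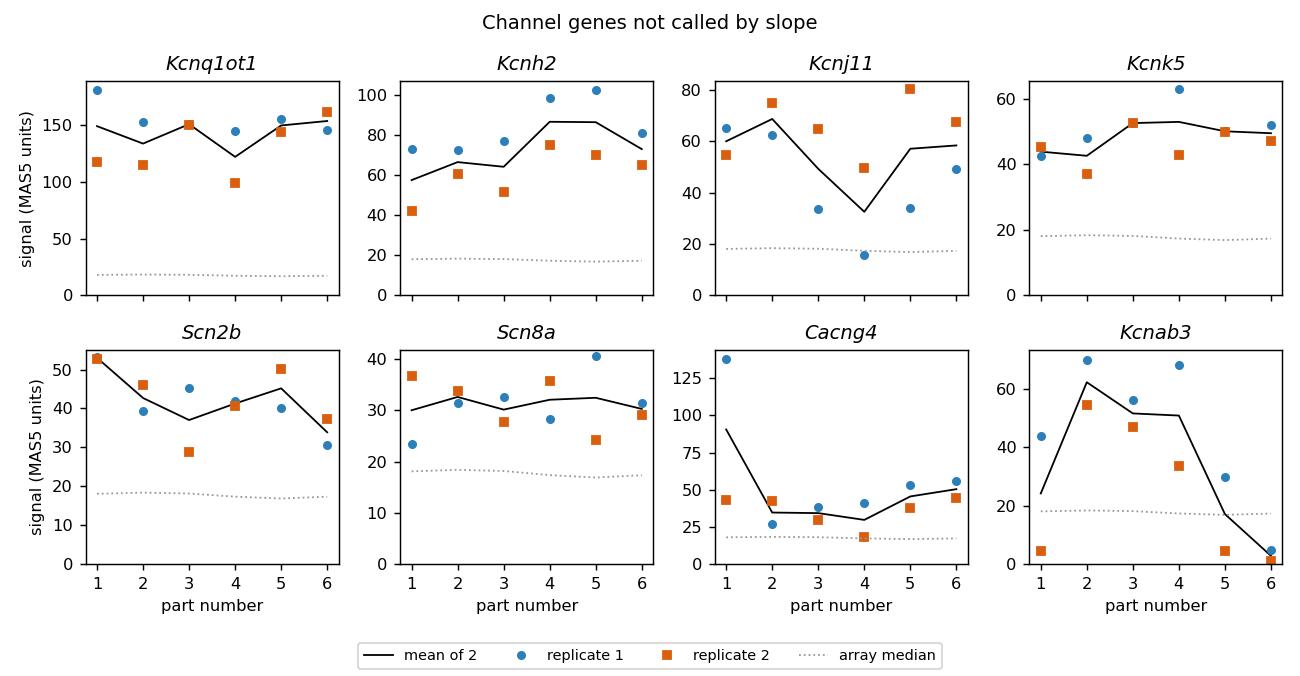
Signal of 8 channel genes not called by slope (MAS5 intensity units) against part number; symbols are as for the called genes, with circles for replicate 1 and squares for replicate 2. Scn8a stayed between 23.3 and 40.6 units, while the replicates of Kcnab3, Kcnj11 and Cacng4 lay far apart in some parts.

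By the F test among the 6 parts 3 of 49 channel genes were called, Kcne1l, Kcng1 and Cacna1h, against 4.9% of all genes, and 5 with the embryo as a block, against 6.62%. The same 3 were called for part 6 against part 1, with 9.09% of all genes, and the block made it 6, against 12.2% of all genes. The additional genes were Kcnc1, Kcnk6 and Kcnmb4. With no filter, part 6 against part 1 gave 5 of 119 channel genes, against 4.48% of all genes, and the steps gave none, against 0.11%. With the filter 0.406% of all genes were called in any step. Kcng1's F call (adjusted p = 0.0405) was lost under 14 of 22 alternatives, and Cacna1h's without replicate 2 of part 6 (adjusted p = 0.05998). The slopes of the 2 replicates differed for 0 of 49 channel genes and 0% of all genes in limma's interaction test, with an unadjusted p under 0.05 for 5 channel genes (10.2%, against 6.62% of all genes). Replicate 2 against replicate 1, with the part as a covariate, gave 0 of 49 channel genes, against 1.64% of all genes.

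Genes that work with channels were read from 3 further lists. Of 14 tested partners, 1 rose and 1 fell, against 5.66% and 7.09% of all genes, so these counts are near the background. Fgf14, an intracellular factor that binds sodium channels, had 338 and 328 units in part 6, against 6.61 and 4.67 in part 1 (slope 1.04 ± 0.055, adjusted p = 1.23e-07), and Abcc8 was the gene that fell. Among 12 tested chloride and gap junction channels, the chloride channel Ano1 rose, with 97.6 and 96.4 units in part 6, against 10.9 and 4.32 in part 1 (slope 0.60 ± 0.077, adjusted p = 0.000189). None of 4 tested sodium pump genes was called. Rest, a repressor of neuronal genes, channels among them, had a slope of 0.00 ± 0.044 (adjusted p = 1.00).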

How the data were processed

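Per the submitters' processing notes, the deposited values are linear intensities made with MAS5; neither version nor settings are stated in the sources used here. On each array the trimmed mean, with 2% of probe sets left off at each end, was equal. Of 45101 probe sets, 64 were controls, 34945 had 1 gene symbol in GEO's platform annotation, which can be old, 932 had several and 9160 none. By Entrez identifier 34741 matched RefSeq.

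Tests ran on log2(signal + 4.43), where 4.43 is 0.25 of the overall median signal (17.7). This scale understates changes of dim genes. Genes above their array's median on at least 2 of 12 arrays were tested with limma 3.58.1 in R 4.3.3, with Benjamini-Hochberg adjustment at 0.05, and the code was tried on simulated data. Fits were the slope over part number, and 1 coefficient per part for the F test, steps, and part 6 minus part 1. Named were called genes, the 3 with the highest mean per class, all sodium alpha and calcium alpha1 subunits, Kcnq1ot1 and called members of the gene lists, of which those among the cell type markers are mostly given as counts; others were chosen after their values were seen. The members and lists were chosen with earlier results of these data known.

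The design text names 2 embryos. Deviations of same-numbered arrays from their part means correlated in 15 of 15 pairs of parts (0.184 to 0.336, median 0.234). On this basis the replicate number was taken as the embryo. The sample titles give only a biological replicate number, and a batch shared by those arrays cannot be told apart from an embryo. Values with the embryo as a block stand beside any call they alter. With 2 arrays per part, p-values of the fits with 1 coefficient per part measure only the spread between these embryos. Those of the slope also take in departures of the part means from a straight line. Fits without the block treat arrays of 1 embryo as independent. The number of arrays limits the precision. Alternatives covered the offset, filter, normalization, probe sets, spread model, block and arrays left out.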

Additional observations from a re-analysis of the deposited data

How the results depend on the processing

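No called direction was reversed under the alternatives run. The count of 49 channel genes above the median became 19 against the median of 1 probe set per gene, 14 when all 12 arrays were required and 3 at the 75th percentile, and leaving out 1 array gave 46 to 49. The 8 slope calls became 1 with a filter at the 75th percentile, which left 3 channel genes to test, and 4 without both arrays of part 1; leaving out 1 array gave 6 to 9. At that percentile the F test gave 0, part 6 minus part 1 gave 1, and the steps gave 0. With no filter, part 6 minus part 1 gave 5, adding Kcng4 and Kcnq3, and the steps 0. With the replicate block, the F test gave 5 in place of 3 and part 6 minus part 1 gave 6 in place of 3, while the slope gave 9, adding Kcnmb4os2 (adjusted p = 0.04996). The 1 gene called in a step became 0 without both arrays of part 1 and 2 without both arrays of part 6, and leaving out 1 array gave 0 to 2, with 0 without replicate 2 of part 1 or of part 2. Leaving out 1 array gave 2 to 4 genes for the F test and 3 to 4 for part 6 minus part 1. Kcne1l was called by slope under all 22 alternatives (highest adjusted p = 0.0418, without both arrays of part 1), and Kcnk6 was not under 10 of 21. The causes were not tested. Most channel genes had dim signals, which may be background, and 49 of 119 passed the filter and were tested.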

Other observations

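Replicate 2 was compared with replicate 1 with the part as a covariate, a comparison chosen after seeing the data. In limma 0 of 49 channel genes were called, and 198 of 12077 genes. Kcnh2 averaged 60.8 units in replicate 2 and 84.2 in replicate 1 and was higher in replicate 1 in 6 of 6 parts (difference -0.45 ± 0.095 log2, adjusted p = 0.0585). Cacna2d2, an alpha2delta subunit of calcium channels, averaged 47.1 units in replicate 2 and 26.2 in replicate 1 and was higher in replicate 2 in 6 of 6 parts (0.72 ± 0.19 log2, adjusted p = 0.102). With each replicate number taken as 1 embryo, these values describe 2 embryos. A batch shared by arrays of 1 number cannot be told apart from the embryo.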
